A study of Mus musculus with 4 samples.

Results

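Chemokines and their receptors were followed in RNA-sequencing data from c-Kit-positive bone marrow cells of mice. The set held 39 genes, 18 receptors and 21 ligands, out of 28987 genes in the expression table. Its members were found by gene symbol, and they were chosen with earlier results of these data known. Hif1a-null cells (2 libraries) were compared with Hif1a-intact cells (2 libraries). The Hif1a-null group had the genotype MllPTD/WT, Runx1Flox/Flox, Hif-1alpha Flox/Flox, Mx1-Cre. The Hif1a-intact group was MllPTD/WT, Runx1Flox/Flox, Mx1-Cre, so that both groups carried the Mll partial tandem duplication, the floxed Runx1 alleles and the recombinase. All mice were C57BL/6, and ages were not given in the labels. Mx1-Cre is a recombinase under an interferon-inducible promoter, so the floxed alleles are deleted in any cell that responds to interferon, outside the progenitors too. The product of Hif1a is stabilised when oxygen is low and is part of the transcription factor HIF-1, and the comparison asks what its deletion changed in Mll-PTD, Runx1-deleted progenitors.

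Chemokines are small secreted proteins that draw leukocytes along a gradient by binding membrane-spanning receptors that signal through inhibitory G proteins. In bone marrow, CXCL12 from stromal cells holds stem and progenitor cells and immature neutrophils in place through CXCR4, CXCR2 and its ligands draw neutrophils out to the blood, and CCR2 lets monocytes leave. Atypical receptors bind chemokines without that signal, and they scavenge or present the ligand. Because most receptors are carried by few kinds of leukocyte, several serve as markers of the cell that carries them.

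Expression was deposited in TPM, a level of transcripts scaled for transcript length and for the library's total. Read counts cannot be had from it, and the sequencing depth is unknown. Tests were made with limma on log2(TPM + 1), Hif1a-null minus Hif1a-intact, in genes that reached 1 TPM in 2 or more libraries, and a gene was called at a Benjamini-Hochberg adjusted p under 0.05 over all 11909 genes tested. Separate mice are not named for the libraries within a group, so p-values measure the spread between these libraries, which may be technical. Hif1a itself read 98.8 and 113.5 TPM in Hif1a-null libraries, against 100.3 and 75.2 TPM in Hif1a-intact libraries, and so gave no sign of its deletion. A gene's TPM also counts exons outside a floxed segment, so this level does not check the labels. Runx1, floxed in both groups, read 48.4 and 46.7 TPM in Hif1a-null libraries and 73.6 and 76.6 TPM in Hif1a-intact libraries (adjusted p = 0.0636). The cells were selected on CD117 beads, and Kit read 121 and 102 TPM in Hif1a-null libraries against 128 and 126 TPM in Hif1a-intact libraries. Granulocyte transcripts were also abundant, with S100a8 at 11930 and 11030 TPM in Hif1a-null libraries and 9656 and 4627 TPM in Hif1a-intact libraries.

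The start regions of 4 members are shown because their levels carry most of what follows. They are Ackr1 and Ccr2, higher in Hif1a-null cells, Ccl9, lower in them, and Cxcr4, the most abundant receptor. RefSeq windows on GRCm38.p6 run from 250 bases before to 50 bases after a RefSeq transcript start. They were held for 31 of the 39 members, in 35 windows. Each is printed 5′ to 3′ on the gene's strand, at chr1:173333454-173333753 (minus) for Ackr1, chr9:124101933-124102232 (plus) for Ccr2, chr1:128592250-128592549 (minus) for Cxcr4 and chr11:83578587-83578886 (minus) for Ccl9. Capitals mark matches to the core of the HIF-bound element (ACGTG or GCGTG), to the GATA factor motif GATAA and to the RUNX motif TGTGGT, searched on both strands, with TTATC being GATAA on the opposite strand.
Ackr1: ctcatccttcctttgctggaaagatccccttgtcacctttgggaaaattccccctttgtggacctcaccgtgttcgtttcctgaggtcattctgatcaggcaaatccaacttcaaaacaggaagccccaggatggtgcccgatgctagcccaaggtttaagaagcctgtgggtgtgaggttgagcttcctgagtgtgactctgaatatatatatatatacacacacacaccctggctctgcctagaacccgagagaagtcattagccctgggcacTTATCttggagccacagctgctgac
Ccr2: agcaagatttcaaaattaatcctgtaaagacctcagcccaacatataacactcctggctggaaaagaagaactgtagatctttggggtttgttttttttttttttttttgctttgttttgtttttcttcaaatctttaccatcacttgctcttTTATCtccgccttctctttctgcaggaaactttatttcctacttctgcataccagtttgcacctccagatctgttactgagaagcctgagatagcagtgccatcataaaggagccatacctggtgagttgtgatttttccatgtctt
Cxcr4: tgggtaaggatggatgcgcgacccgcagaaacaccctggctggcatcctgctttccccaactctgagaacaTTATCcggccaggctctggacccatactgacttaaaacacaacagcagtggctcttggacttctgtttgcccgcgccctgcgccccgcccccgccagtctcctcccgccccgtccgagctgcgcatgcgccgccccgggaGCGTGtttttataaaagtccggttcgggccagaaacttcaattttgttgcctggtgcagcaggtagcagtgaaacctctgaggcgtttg
Ccl9: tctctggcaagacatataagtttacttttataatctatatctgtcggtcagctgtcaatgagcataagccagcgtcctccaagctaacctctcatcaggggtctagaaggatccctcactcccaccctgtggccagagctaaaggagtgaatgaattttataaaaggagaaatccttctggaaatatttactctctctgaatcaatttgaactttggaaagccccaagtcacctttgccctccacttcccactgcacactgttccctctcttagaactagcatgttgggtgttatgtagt
The Ackr1 window held GATAA on the opposite strand, 25 bases after the RefSeq start. The Ccr2 window also held it on the opposite strand, and its match began at -97. In the GENCODE annotation Ackr1 begins at 173333750 and Ccr2 at 124101950. On those bounds nearly all of each window, with its match, lies inside the gene. The Cxcr4 window held GCGTG at -39 and GATAA on the opposite strand at -179, and the Ccl9 window held no match. Either HIF core lay in 19 of the members' 35 windows and in 43.8% of 32851 windows of all genes. GATAA lay in 9 of 35 and in 25.4% of all windows, and TGTGGT in 10 of 35 and in 16.8%. A match of so few letters is a description of the window and not a bound site.

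Both groups put most of their receptor and ligand RNA into a single gene each, and the rest of the set was higher in Hif1a-null cells. The 18 receptors summed to 271.5 and 265.5 TPM in Hif1a-null libraries and 285.7 and 328.3 TPM in Hif1a-intact libraries. Cxcr4 made up 66.3% and 66.9% of that sum in Hif1a-null libraries, against 89.8% and 92.1% in Hif1a-intact libraries. Without Cxcr4, the other receptors summed to 91.5 and 87.9 TPM in Hif1a-null libraries and 29.3 and 26.0 TPM in Hif1a-intact libraries. The ligands had the same shape. Ccl9 made up 52.8% and 52.6% of the summed ligand level in Hif1a-null libraries and 86.0% and 83.8% in Hif1a-intact libraries, and without it the ligands summed to 88.4 and 85.9 TPM in Hif1a-null libraries against 33.1 and 38.3 TPM in Hif1a-intact libraries. In both sums the remainder did not overlap between the groups. In bulk samples such as these, fewer cells of a type and less RNA per cell cannot be told apart.

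**Figure D1:**
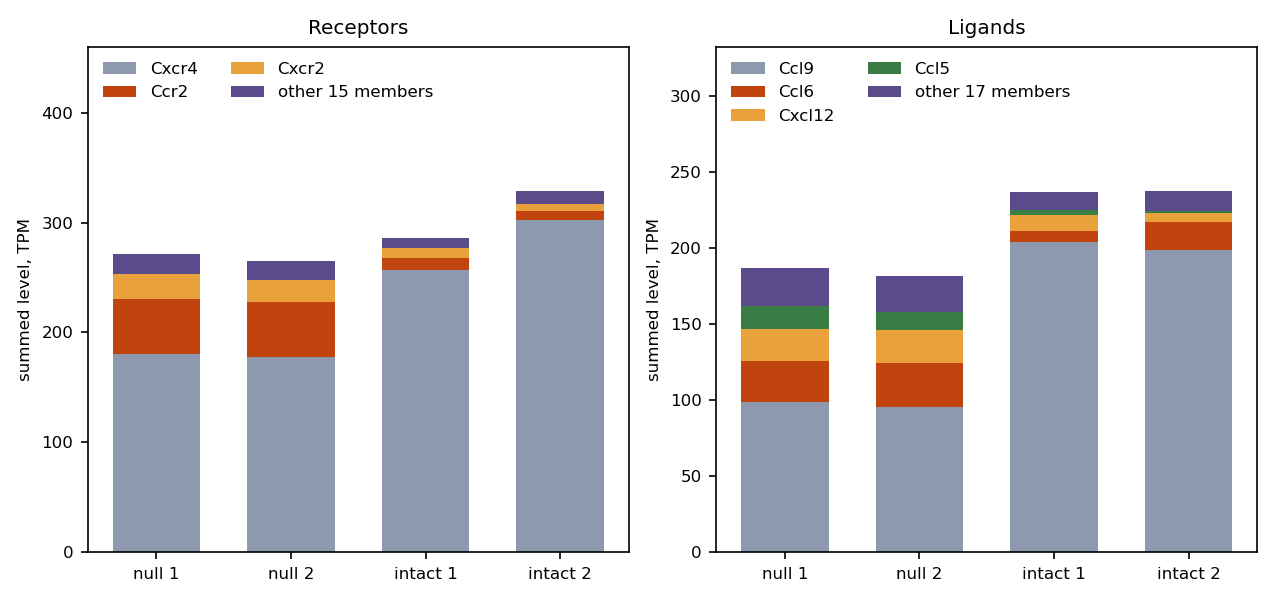
Summed TPM of the 18 receptors and of the 21 ligands in each library, stacked by gene, with null and intact standing for the Hif1a-null and Hif1a-intact libraries. The other receptors sum to 91.5 and 87.9 TPM in the Hif1a-null bars and 29.3 and 26.0 TPM in the Hif1a-intact bars, while Cxcr4 is lower in the Hif1a-null bars.

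Of the 39 members, 17 were expressed enough to be tested. Ackr1, Ccr2, Cxcr2, Cxcr3, Ccl4 and Ccl5 rose in Hif1a-null cells, Ccl9 fell, and the other 10 tested members were not called. Over all tested genes 7.27% were called, 5.25% higher and 2.02% lower. Of the 17, 3 (Ackr1, Cxcr3 and Ccl24) reached 1 TPM in the Hif1a-null libraries alone and had to be higher there to be tested. Over the 35 members with a value in any library, both Hif1a-null libraries lay above both Hif1a-intact libraries in 26 (74.3%) and below in 4 (11.4%), with overlap in 5. The same held in 23.6% and 23.1% of the 20081 genes with a value. Among tested genes alone the shares were 22.7% above and 32.3% below, and the 17 tested members divided into 13 above, 3 below and 1 overlapping. The median log2 fold change was 1.03 over the 8 tested receptors and 0.73 over the 9 tested ligands, beside -0.06 over all tested genes. Leaving out Hif1a-null replicate 1 or 2 left 0 members called in either direction, with 11 and 0 genes of the whole table called higher. With no filter on low values, Ccr2, Ackr1 and Ccl9 were the members called (adjusted p = 0.0314, 0.0218 and 0.0261).

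**Figure D2:**
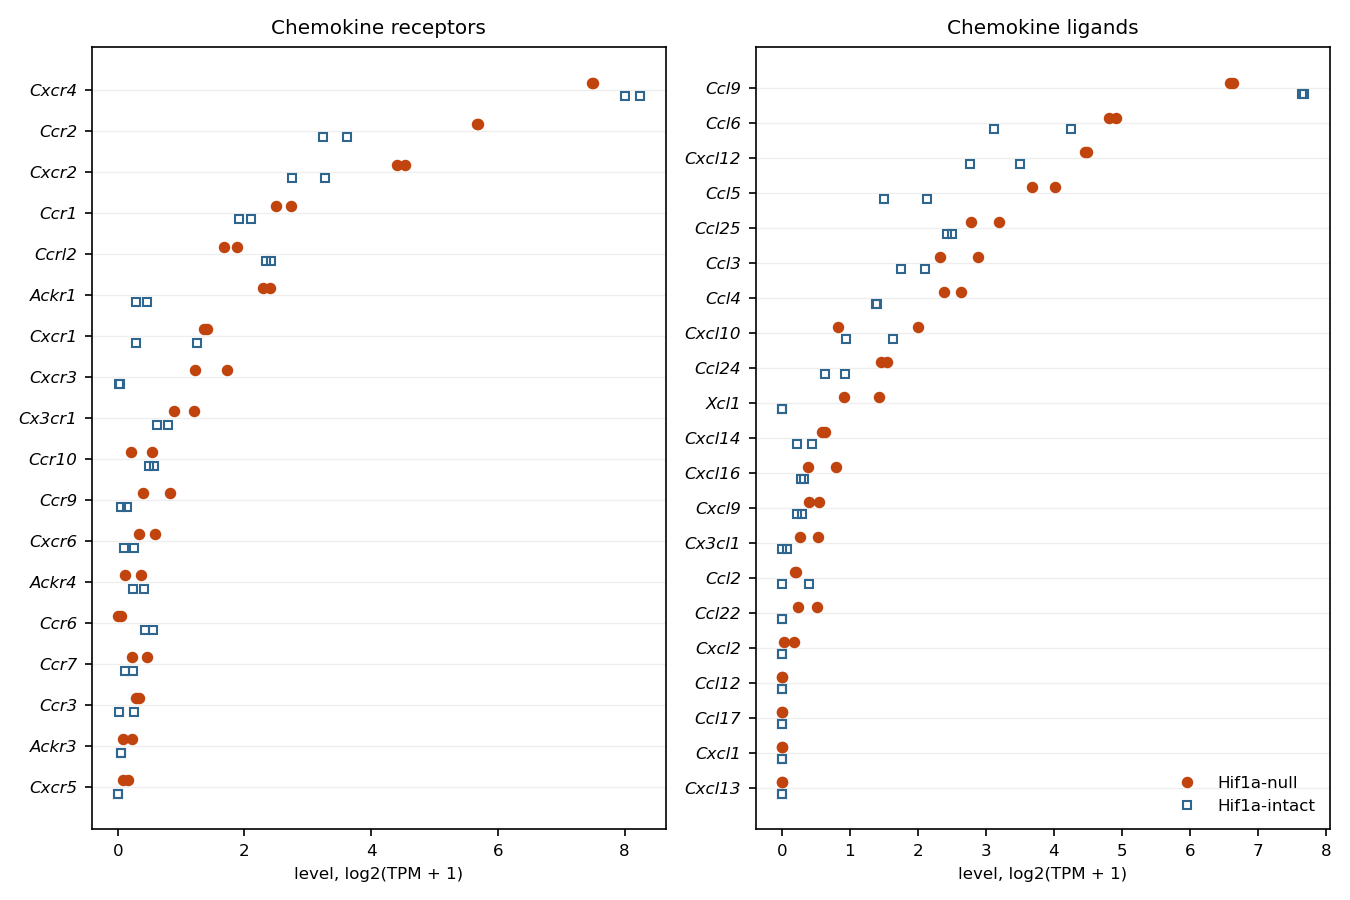
Level of each of the 39 members in each library as log2(TPM + 1), Hif1a-null libraries as filled circles above Hif1a-intact libraries as open squares, with receptors and ligands in separate panels. Cxcr4 and Ccl9 head their panels and are lower in Hif1a-null libraries, while Ccr2, Cxcr2, Ccl5 and Cxcl12 lie higher in them.

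Cxcr4, the CXCL12 receptor that keeps stem and progenitor cells and immature granulocytes in the marrow, was the most abundant member. It read 180.0 and 177.5 TPM in Hif1a-null libraries and 256.5 and 302.3 TPM in Hif1a-intact libraries. The groups did not overlap, yet the difference missed the threshold (log2 fold change -0.64, SE 0.15, 95% interval -1.04 to -0.24, limma adjusted p = 0.0953). Beside it, the other stem and progenitor markers divided: Hlf and Slamf1 rose (Slamf1 past the filter through the Hif1a-null libraries alone), Gata2 fell, and the list of 12 summed to 565.7 and 573.5 TPM in Hif1a-null libraries against 704 and 751.2 TPM in Hif1a-intact libraries. Their part in the Cxcr4 values was not tested.

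Ccr2, the CCL2 receptor that marks classical monocytes and their progenitors, rose 5.09-fold and was second to Cxcr4 among receptors in all 4 libraries. It read 50.7 and 49.9 TPM in Hif1a-null libraries and 11.3 and 8.48 TPM in Hif1a-intact libraries. The Hif1a-null libraries were both far above the Hif1a-intact ones (log2 fold change 2.25, SE 0.18, 95% interval 1.77 to 2.73, limma adjusted p = 0.00988; chromosome 9, 124101950 to 124113557 on GRCm38, plus strand). Without Hif1a-null replicate 1 the adjusted p was 0.125 at a log2 fold change of 2.24, and without replicate 2 it was 0.140 at 2.26. The monocyte marker list did not rise with it. Apart from the chemokine receptors, 0 monocyte markers were called higher and 1 was called lower. That 1 was Ms4a4c, a membrane protein of Ly6C-high monocytes, at 27.0 and 21.5 TPM in Hif1a-null libraries and 91.3 and 74.1 TPM in Hif1a-intact libraries (log2 fold change -1.73, adjusted p = 0.0199). The 8 non-chemokine monocyte markers summed to 845.7 and 920.2 TPM in Hif1a-null libraries against 962.9 and 1025 TPM in Hif1a-intact libraries. Csf1r, the receptor of the growth factor that monocytes need, read 22.9 and 23.1 TPM in Hif1a-null libraries and 31.6 and 19.7 TPM in Hif1a-intact libraries, with Hif1a-null values between the Hif1a-intact ones. Cx3cr1, the fractalkine receptor of patrolling monocytes, was too low to test at 0.860 and 1.30 TPM in Hif1a-null libraries and 0.731 and 0.543 TPM in Hif1a-intact libraries.

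The neutrophil receptors are neighbours on chromosome 1, with Cxcr2 and Cxcr1 within 40.6 kb. Cxcr2, which moves mature neutrophils toward CXCL1 and CXCL2, read 22.1 and 20.1 TPM in Hif1a-null libraries and 8.60 and 5.76 TPM in Hif1a-intact libraries. Both Hif1a-null libraries were above both Hif1a-intact ones (2.94-fold, log2 fold change 1.45, SE 0.22, limma adjusted p = 0.0372). Cxcr1, its paralogue, read 1.66 and 1.57 TPM in Hif1a-null libraries and 0.2255 and 1.39 TPM in Hif1a-intact libraries, which disagreed with each other (log2 fold change 0.61, SE 0.35, adjusted p = 0.395). Ccr1, a receptor of CCL3, CCL5 and CCL9 on neutrophils and monocytes, read 4.67 and 5.64 TPM in Hif1a-null libraries and 2.78 and 3.28 TPM in Hif1a-intact libraries without overlap (log2 fold change 0.61, SE 0.16, adjusted p = 0.120). Many neutrophil granule and surface genes were higher as well. Of 12 such markers outside the chemokine family, 7 rose and 0 fell, and 1 (Il1b) was under the filter. Lcn2 and S100a8 lay higher without being called. Camp and Csf3r did not rise (log2 fold change -0.16 and -0.09, limma adjusted p = 0.662 and 0.729). Mmp8, the neutrophil collagenase, read 29.1 and 30.5 TPM in Hif1a-null libraries and 4.06 and 3.11 TPM in Hif1a-intact libraries, and the 12 summed to 38600 and 37710 TPM in Hif1a-null libraries against 28060 and 24630 TPM in Hif1a-intact libraries. Their part in the Cxcr2 rise was not tested. Without Hif1a-null replicate 1 or 2 the adjusted p of Cxcr2 was 0.306 and 0.302, and without Hif1a-intact replicate 2 Cxcr1 passed (log2 fold change 1.09, adjusted p = 0.0453). Without Hif1a-intact replicate 1, Hif1a-null replicate 1 or Hif1a-null replicate 2, Cxcr1 had adjusted p-values of 0.443, 0.858 and 0.8915.

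Cxcr3, the receptor of CXCL9 and CXCL10 on activated T cells and natural killer (NK) cells, rose to a low level. It read 2.31 and 1.32 TPM in Hif1a-null libraries and 0.0195 and 0.0182 TPM in Hif1a-intact libraries (log2 fold change 1.45, SE 0.21, limma adjusted p = 0.0367). The call was lost without Hif1a-intact replicate 1 (adjusted p = 0.0787) or replicate 2 (0.0887), and without either Hif1a-null library the gene was under the filter. Cxcr6, the CXCL16 receptor of resident T and NK cells, was under the filter at 0.497 and 0.268 TPM in Hif1a-null libraries and 0.0704 and 0.198 TPM in Hif1a-intact libraries. T and NK markers were higher as well, with 8 of 10 tested called higher, though 6 of the 10 reached the filter through the Hif1a-null libraries alone. Ncr1, an activating receptor of NK cells, read 16.3 and 17.1 TPM in Hif1a-null libraries and 0.283 and 0.0221 TPM in Hif1a-intact libraries. Trbc1, Gzma and Prf1 were listed at 0 in each Hif1a-intact library. The summed level of the 15 T and NK markers did not separate the groups, at 209.6 and 241.9 TPM in Hif1a-null libraries and 185.1 and 292.0 TPM in Hif1a-intact libraries, since Nkg7 alone gave 122 and 144 TPM in Hif1a-null libraries and 177 and 284 TPM in Hif1a-intact libraries. The part of these cells in the Cxcr3 values was not tested.

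Unlike Cxcr3, the receptors Ccr3, Ccr6, Ccr7, Ccr9, Ccr10 and Cxcr5 of lymphocytes, dendritic cells and eosinophils stayed under 1 TPM in all libraries. Ccr9, the CCL25 receptor of thymus-seeding progenitors and plasmacytoid dendritic cells, read 0.763 and 0.316 TPM in Hif1a-null libraries and 0.0355 and 0.106 TPM in Hif1a-intact libraries, without overlap. It has 1932 exon bases opposite AC165425.1, listed at 0 in every library. A further 22 lie opposite Slc6a20a, which read 3.06 and 2.63 TPM in Hif1a-null libraries and 0 in each Hif1a-intact library. Ccr3, the eotaxin receptor of eosinophils, read 0.217 and 0.264 TPM in Hif1a-null libraries against 0.00970 and 0.191 TPM in Hif1a-intact libraries. Beside them, 4 of 9 tested dendritic-cell markers rose and 0 fell, and of 5 tested eosinophil markers 2 rose and 1 fell. Of those that rose, Clec9a, Itgax and Ear2 passed the filter through the Hif1a-null libraries alone. Ccr6, the CCL20 receptor of B cells and some T cells, was the one low receptor that ran the other way, at 0 and 0.0353 TPM in Hif1a-null libraries and 0.353 and 0.469 TPM in Hif1a-intact libraries. Cxcr5, which takes B cells into follicles, read 0.0601 and 0.119 TPM in Hif1a-null libraries and was listed at 0 in each Hif1a-intact library. Ccr7, the lymph-node homing receptor, read 0.375 and 0.174 TPM in Hif1a-null libraries and 0.184 and 0.0785 TPM in Hif1a-intact libraries, which overlapped. Ccr10, a skin-homing and plasma-cell receptor, also overlapped, at 0.456 and 0.156 TPM in Hif1a-null libraries and 0.488 and 0.403 TPM in Hif1a-intact libraries. Of the B-lineage markers 9 of 10 tested rose, with 8 of the 10 past the filter through the Hif1a-null libraries alone, and Rag1 and Igll1 were listed at 0 in each Hif1a-intact library.

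Among the atypical receptors, Ackr1, the Duffy antigen of red cells and venular endothelium that binds many chemokines without signalling, rose 13.7-fold on the TPM means. It read 3.87 and 4.28 TPM in Hif1a-null libraries and 0.218 and 0.379 TPM in Hif1a-intact libraries. The groups lay far apart (log2 fold change 1.97, SE 0.14, limma adjusted p = 0.00851; chromosome 1, 173331886 to 173333750 on GRCm38, minus strand). Erythroid markers rose with it, 11 of 12 tested, of which 3 (Alas2, Klf1 and Epor) passed the filter through the Hif1a-null libraries alone, as Ackr1 did. The 12 summed to 6700 and 7184 TPM in Hif1a-null libraries and 174 and 108 TPM in Hif1a-intact libraries. Their part in the Ackr1 rise was not tested. Without either Hif1a-null library Ackr1 was under the filter. Ackr1 shares 361 exon bases on the same strand with Cadm3, which read 0.103 and 0.291 TPM in Hif1a-null libraries and 0.219 and 0.1704 TPM in Hif1a-intact libraries. Ccrl2, which binds chemerin and is carried by activated neutrophils and macrophages, went the other way without being called, at 2.69 and 2.20 TPM in Hif1a-null libraries and 4.04 and 4.33 TPM in Hif1a-intact libraries (log2 fold change -0.59, SE 0.14, adjusted p = 0.106). Ackr3, the CXCL12 scavenger, read 0.0608 and 0.167 TPM in Hif1a-null libraries and 0.0312 and 0.0390 TPM in Hif1a-intact libraries. Ackr4, a scavenger of CCL19, CCL21 and CCL25, overlapped between groups at 0.290 and 0.0877 TPM in Hif1a-null libraries and 0.187 and 0.338 TPM in Hif1a-intact libraries. Ackr4 has 479 exon bases opposite Acad11, a gene at 10.3 to 17.3 TPM, so its low level is uncertain.

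**Figure D3:**
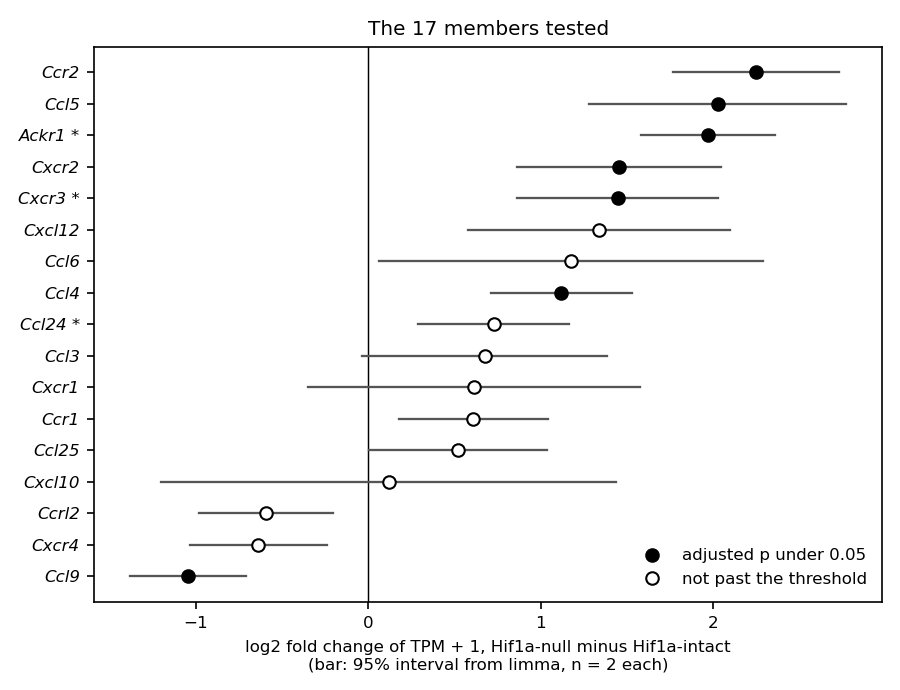
Log2 fold change on the log2(TPM + 1) scale, Hif1a-null minus Hif1a-intact, with its 95% interval from limma, for each of the 17 tested members; filled points were called, and stars mark members that reached 1 TPM in the Hif1a-null libraries alone. Ccr2, Ccl5 and Ackr1 lie near 2, Ccl9 near -1, and the interval of Cxcl10 spans 0 widely.

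On chromosome 11, 5 CC ligands (Ccl5, Ccl9, Ccl6, Ccl3 and Ccl4) lie within 138.9 kb. They did not move alike. Ccl9, a CCR1 ligand made by myeloid cells and abundant in bone marrow, was the member called lower. It read 98.8 and 95.4 TPM in Hif1a-null libraries and 204 and 199 TPM in Hif1a-intact libraries, with tight replicates on both sides (log2 fold change -1.04, SE 0.12, limma adjusted p = 0.0227). Without Hif1a-null replicate 1 or 2 its adjusted p was 0.321 and 0.393, at log2 fold changes of -1.07 and -1.02. Ccl6, its neighbour and close relative, was higher in Hif1a-null libraries at 27.1 and 29.2 TPM against 7.71 and 18.0 TPM in Hif1a-intact libraries. The Hif1a-intact libraries of Ccl6 differed from each other, and it was not called (log2 fold change 1.18, SE 0.41, adjusted p = 0.198). Without Hif1a-intact replicate 2 it passed (log2 fold change 1.74, adjusted p = 0.0310), and without Hif1a-intact replicate 1, Hif1a-null replicate 1 or Hif1a-null replicate 2 its adjusted p was 0.0768, 0.642 and 0.726.

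Ccl5, Ccl4 and Ccl3 bind CCR1 or related receptors and are made by activated T cells, NK cells and macrophages. Ccl5 rose 5.14-fold, at 15.2 and 11.8 TPM in Hif1a-null libraries and 3.40 and 1.85 TPM in Hif1a-intact libraries (log2 fold change 2.02, SE 0.27, limma adjusted p = 0.0297). Ccl4 rose 2.90-fold, at 4.22 and 5.23 TPM in Hif1a-null libraries and 1.62 and 1.64 TPM in Hif1a-intact libraries (log2 fold change 1.12, SE 0.15, adjusted p = 0.0294). Neither overlapped between groups. Ccl3 read 3.99 and 6.40 TPM in Hif1a-null libraries and 3.31 and 2.37 TPM in Hif1a-intact libraries and was not called (log2 fold change 0.67, SE 0.26, adjusted p = 0.233). Of the 10 tested T and NK markers given above, 8 were called higher like Ccl5 and Ccl4. Of the 10, 6 passed the filter through the Hif1a-null libraries alone, and Nkg7 was lower without being called. The part of these markers in the Ccl5 and Ccl4 values was not tested. Leaving out any single library ended the Ccl4 call, at adjusted p-values of 0.239 and 0.409 without Hif1a-null replicates 1 and 2 and 0.0581 and 0.0674 without Hif1a-intact replicates 1 and 2. Ccl5 lost its call without Hif1a-null replicate 1 (0.213), Hif1a-null replicate 2 (0.198) and Hif1a-intact replicate 2 (0.0531).

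The other CC ligands were not called or were under the filter. Ccl25, the CCR9 ligand of thymic and gut epithelium, read 8.16 and 5.87 TPM in Hif1a-null libraries and 4.39 and 4.66 TPM in Hif1a-intact libraries (log2 fold change 0.52, SE 0.19, adjusted p = 0.211). It has 204 exon bases opposite Elavl1, which read between 23.2 and 25.3 TPM in every library, and whether the deposited values used strand is not given. Ccl24, eotaxin-2, read 1.92 and 1.75 TPM in Hif1a-null libraries and 0.547 and 0.897 TPM in Hif1a-intact libraries (log2 fold change 0.73, SE 0.16, adjusted p = 0.0890). Ccl22, a dendritic-cell ligand of CCR4, read 0.432 and 0.178 TPM in Hif1a-null libraries and was listed at 0 in each Hif1a-intact library. Ccl2, the main CCR2 ligand, read 0.142 and 0.156 TPM in Hif1a-null libraries and 0 and 0.319 TPM in Hif1a-intact libraries. Ccl12, a further CCR2 ligand in mice, and Ccl17, the partner of Ccl22, were listed at 0 in all 4 libraries.

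Cxcl12, the stromal retention signal and the ligand of CXCR4, was the most abundant CXC ligand among the 39 genes. It read 21.1 and 21.5 TPM in Hif1a-null libraries and 10.3 and 5.84 TPM in Hif1a-intact libraries, without overlap. The difference missed the threshold (log2 fold change 1.34, SE 0.28, 95% interval 0.58 to 2.10, limma adjusted p = 0.0765), and it passed without Hif1a-intact replicate 1 (1.70, adjusted p = 0.0245) or replicate 2 (0.97, adjusted p = 0.0487). Without Hif1a-null replicate 1 or 2 its adjusted p was 0.412 and 0.464. Of the other stromal and endothelial markers, Lepr and Sparc rose, and Pecam1 and Pdgfrb fell. Lepr, the leptin receptor that marks CXCL12-rich stromal cells, read 6.06 and 4.95 TPM in Hif1a-null libraries and 1.09 and 1.36 TPM in Hif1a-intact libraries. The 12 non-chemokine markers of this list summed to 122 and 134.3 TPM in Hif1a-null libraries and 108.7 and 129.8 TPM in Hif1a-intact libraries, which overlapped. The largest part of each sum was Vcam1, also listed as a macrophage marker. Vcam1 gave 65.3 and 69.7 TPM in Hif1a-null libraries and 54.9 and 80.0 TPM in Hif1a-intact libraries, so the sum says little of the other markers. The part of these markers in the Cxcl12 values was not tested.

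Of the interferon-induced CXCR3 ligands, Cxcl10 was tested and not called. Cxcl10 read 3.003 and 0.773 TPM in Hif1a-null libraries and 0.933 and 2.12 TPM in Hif1a-intact libraries, and the replicates of each group spread as widely as the groups (log2 fold change 0.12, SE 0.48, 95% interval -1.20 to 1.44, adjusted p = 0.919). Cxcl10 has 133 exon bases opposite Art3, which read 0.313 and 0.683 TPM in Hif1a-null libraries and 0.202 and 2.75 TPM in Hif1a-intact libraries. Cxcl9 was under the filter at 0.315 and 0.457 TPM in Hif1a-null libraries and 0.233 and 0.171 TPM in Hif1a-intact libraries. Xcl1, lymphotactin, the NK and T cell ligand that calls cross-presenting dendritic cells, read 1.70 and 0.884 TPM in Hif1a-null libraries and was listed at 0 in each Hif1a-intact library. It was not tested because 1 library alone reached 1 TPM. The CXCR2 ligands Cxcl1 and Cxcl2 were scarce. Cxcl2 read 0.136 and 0.0279 TPM in Hif1a-null libraries and was listed at 0 in each Hif1a-intact library, and Cxcl1 was listed at 0 in all 4, as was Cxcl13, the follicular CXCR5 ligand. Cxcl14, an epithelial ligand, Cxcl16, the transmembrane ligand of CXCR6, and Cx3cl1, fractalkine, all stayed under 1 TPM. Cxcl14 read 0.554 and 0.514 TPM in Hif1a-null libraries and 0.367 and 0.172 TPM in Hif1a-intact libraries. Cxcl16 read 0.311 and 0.738 TPM in Hif1a-null libraries and 0.223 and 0.262 TPM in Hif1a-intact libraries, and it has 552 exon bases opposite Zmynd15. Cx3cl1 read 0.1998 and 0.451 TPM in Hif1a-null libraries and 0.0575 and 0 TPM in Hif1a-intact libraries. In these 3 genes both Hif1a-null libraries lay above both Hif1a-intact libraries.

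Receptors and their ligands were set side by side as levels. For CXCR4 the receptor was lower and Cxcl12 higher in Hif1a-null cells, though neither was called. Ccr2 rose while its ligands Ccl2, Ccl7 and Ccl12 summed to 0.431 and 0.235 TPM in Hif1a-null libraries and 0.0991 and 0.319 TPM in Hif1a-intact libraries, a small fraction of the receptor's level. For CCR1 the proportion was the opposite. Its ligands Ccl3, Ccl5, Ccl6 and Ccl9 summed to 145.0 and 142.8 TPM in Hif1a-null libraries and 218.1 and 221.1 TPM in Hif1a-intact libraries, beside a receptor that averaged 5.15 TPM in Hif1a-null and 3.03 TPM in Hif1a-intact libraries. Of the CXCR2 ligands, Cxcl1, Cxcl2, Cxcl3 and Cxcl5 summed to 1.27 and 1.01 TPM in Hif1a-null libraries and 0.205 and 0 TPM in Hif1a-intact libraries. That sum leaves out Ppbp, whose product is cut to a CXCR2 ligand in platelets, and which read 64.2 and 74.9 TPM in Hif1a-null libraries and 3.55 and 5.46 TPM in Hif1a-intact libraries, above Cxcr2 itself in the Hif1a-null libraries and below it in the Hif1a-intact libraries. Xcr1, the receptor of Xcl1, read 0.164 and 0.153 TPM in Hif1a-null libraries and 0.0784 and 0.0382 TPM in Hif1a-intact libraries.

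**Figure D4:**
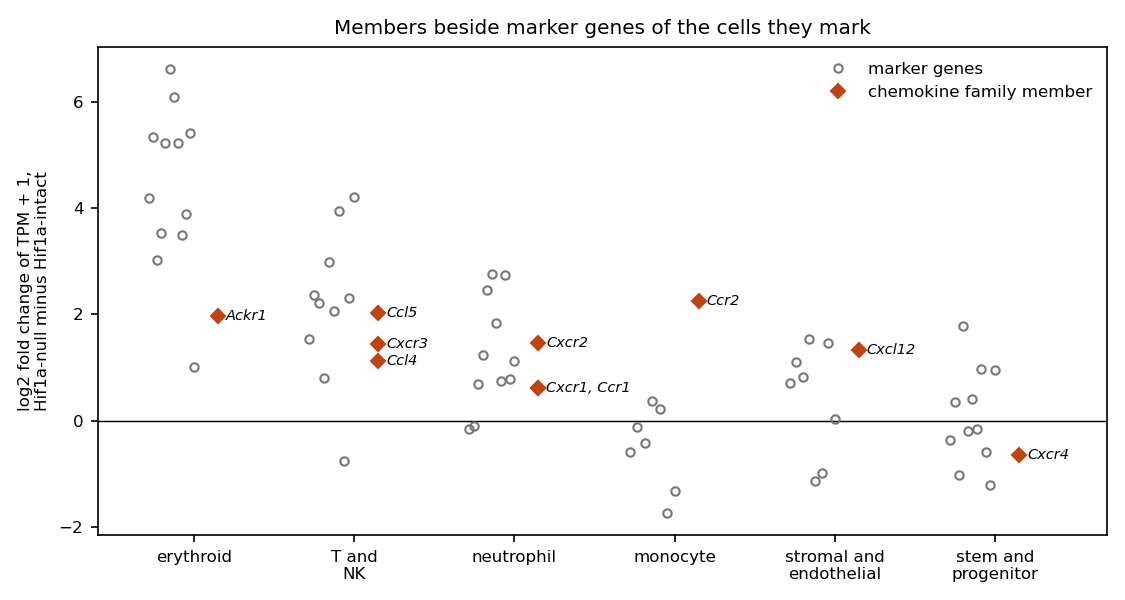
Log2 fold change on the log2(TPM + 1) scale, Hif1a-null minus Hif1a-intact, of 10 members (filled) beside the tested marker genes of the cells they mark (open). Ackr1 at 1.97 lies below every called erythroid marker, and Cxcr2 lies among the neutrophil markers. Ccr2 at 2.25 lies above every other tested monocyte marker.

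Chemokine genes outside the set, and the genes that act beside them, were read for context. Of 22 other chemokine and receptor genes in the table, 4 were tested and 3 rose, among them the platelet chemokines. Ppbp, the precursor of the CXCR2 ligand NAP-2, read 64.2 and 74.9 TPM in Hif1a-null libraries and 3.55 and 5.46 TPM in Hif1a-intact libraries (log2 fold change 3.70, SE 0.22, limma adjusted p = 0.00679). Pf4, platelet factor 4, read 6.30 and 11.04 TPM in Hif1a-null libraries and 0.848 and 1.59 TPM in Hif1a-intact libraries (log2 fold change 2.10, SE 0.32, adjusted p = 0.0399). Megakaryocyte markers, which include both, rose in 6 of 10, and 2 of the 10 passed the filter through the Hif1a-null libraries alone. Other chemoattractant receptors rose in 3 of 12 tested and fell in 1. Fpr2 and Fpr1, which guide phagocytes to formyl peptides, rose by 2.31 and 2.42 on the log2 scale (adjusted p = 0.00655 and 0.00779). S1pr1, the sphingosine-1-phosphate exit receptor, past the filter through the Hif1a-null libraries alone, rose by 0.97 and its relative S1pr3 fell by 1.23 on that scale (adjusted p = 0.0419 and 0.0251).

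The shared signalling chain did not pass the test. Of 36 tested genes for G proteins, receptor kinases, arrestins and downstream kinases, limma called 0. The smallest limma adjusted p was 0.0589, for Gng12, a G protein gamma subunit. Gng12 read 45.5 and 44.4 TPM in Hif1a-null libraries and 90.3 and 73.85 TPM in Hif1a-intact libraries. Both Hif1a-null libraries lay below both Hif1a-intact libraries in 21 of the 36 signalling genes and above in 4. Over all tested genes those shares were 32.3% below and 22.7% above. Of 19 tested adhesion genes, which arrest cells that chemokines have activated, 2 rose and 2 fell. Itgax (CD11c) and Jam3, both past the filter through the Hif1a-null libraries alone, rose by 1.01 and 0.93 on the log2 scale, and Pecam1 and Itgb7 fell by 0.98 and 1.13. Of 9 tested genes that control CXCL12 and its receptors, 2 rose and 0 fell. Mmp9, a protease that cuts CXCL12, is also counted among the neutrophil markers above. It rose to 195 and 216 TPM in Hif1a-null libraries, against 60.2 and 52.9 TPM in Hif1a-intact libraries (limma adjusted p = 0.00996). Elane and Ctsg of this list overlapped between groups and were not called (log2 fold change 0.11 and -0.35). Cd74, which pairs with CXCR4 as a receptor of the cytokine MIF, read 91.9 and 87.8 TPM in Hif1a-null libraries and 43.7 and 38.8 TPM in Hif1a-intact libraries (adjusted p = 0.0249). Dpp4, a peptidase that inactivates CXCL12, read 12.15 and 15.6 TPM in Hif1a-null libraries and 34.7 and 19.8 TPM in Hif1a-intact libraries and was not called (adjusted p = 0.207). Of the remaining cell lists, 1 macrophage marker (Mrc1, past the filter through the Hif1a-null libraries alone) rose and 1 (Adgre1) fell, and 2 mast-cell and basophil markers fell (Cpa3 and Gata2).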

How the data were processed

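Marrow cells positive for c-Kit were taken on CD117 beads and their RNA was sequenced in 4 libraries, 2 Hif1a-null and 2 Hif1a-intact, grouped by the genotype labels with no batch or pairing named. The deposited values were TPM per gene, made by the authors with kallisto, and the build named is mm10, per the submitters' processing notes. Which version, transcript set and strand option were used is not given in the sources used here. TPM was read as the unit from the values, which sum to between 955562 and 963135 per library. Because kallisto estimates how reads divide between alike transcripts, a value at or near 0 can be a failed estimate, and a rise in abundant transcripts lowers the others.

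The 39 members were found by symbol through GENCODE vM21 (GRCm38), which named 27458 of the 28987 genes. The members and the gene lists were chosen with earlier results of these data known. The test was two-sided, by lmFit and eBayes of limma 3.58.1 (R 4.3.3), on log2(TPM + 1), over genes that reached 1 TPM in 2 or more libraries. P-values were adjusted by the Benjamini-Hochberg method over all 11909 tested genes, with a threshold of 0.05, and the test was checked on simulated data. Fold changes are on the log2(TPM + 1) scale, which understates changes of low genes, except where a ratio of mean TPM is named as a fold.

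Full statistics are given for called members and, in each role group, for up to 3 further tested members of highest mean TPM and up to 2 of smallest unadjusted p; other lists name up to 4 called genes. Markers beyond these were named after their values were seen. Some genes of the lists are not reported here. Near-identical transcripts were searched with blastn 2.17.0 and shared exons in GENCODE. The windows of start regions are RefSeq, GRCm38.p6, and their starts can differ from the GENCODE gene bounds. The 15 alternatives covered variance models, rescaling, filters, pseudocounts and leaving out each library. Tests for counts were left out, since TPM is not a count. Figures were drawn with matplotlib 3.10.9.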

Additional observations from a re-analysis of the deposited data

How the results depend on the processing

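Over the 11 alternatives that kept all 4 libraries, the 17 tested members gave 166 values with the direction and side of the threshold kept, 10 that lost a call and 1 that reversed. The reversal was Cxcl10, at -0.20 with quantile normalization. With a library left out its log2 fold change ran between -0.23, without Hif1a-intact replicate 1, and 0.70, without Hif1a-null replicate 2. Of the values with a library left out, 40 kept direction and call, 15 lost a call and 4 gained one. Members called higher numbered 2 with no filter and 3 with a filter of 5 TPM in 2 or more libraries, against 6 in the test as reported, and between 0 and 6 with a library left out. Quantile normalization and a pseudocount of 5 each ended the calls of Ccl4 and Cxcr3, and a pseudocount of 0.1 those of Cxcr2 and Ccl5. Members called lower numbered between 0 and 1 with a library left out. Over all genes, those called higher numbered 332 with the 5 TPM filter and 399 with a pseudocount of 5, against 625, and between 0 and 731 with a library left out. Those called lower numbered 138 with no filter, against 241, and between 0 and 288 with a library left out. With a Hif1a-null library left out, the lone remaining library is assumed to vary like the Hif1a-intact pair. The cause of these changes was not tested beyond fewer libraries or other genes tested. Ccr2, Ackr1 and Ccl9 were called under each of the 11 alternatives that kept all libraries and tested them. No paired analysis was possible because the labels give no replicate numbers shared between the groups. TPM keeps no counts, so how far depth limits the members under 1 TPM is unknown.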
